A study of Mus musculus with 14 samples.

Results

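The 10 genes described here belong to fibroblast growth factor (FGF) signalling in the mouse heart, of 49315 genes in the count table: the Klotho co-receptor genes Klb and Kl, the receptor genes Fgfr1, Fgfr2, Fgfr3 and Fgfr4, the receptor-like gene Fgfrl1, and the ligand genes Fgf1, Fgf16 and Fgf18. They were taken by gene symbol, and they were chosen with their levels at both ages in earlier results of these data known. Their differences between the ages are therefore given as a description and not as a test. The hearts came from male wild-type C57BL/6 mice on standard chow at 68 weeks and at 12 weeks of age, with RNA sequenced from 4 samples at each age. H3K27me3 CUT&RUN, which maps a histone mark of Polycomb silencing by cutting DNA at antibody-bound sites, was made on hearts of the same 2 ages with 2 libraries and 1 input library each. Nothing in the labels ties the 4 samples of an age to different animals, so p-values measure the spread between these samples, which may be technical.

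FGF ligands are secreted proteins that bind receptor tyrosine kinases on the cell surface. Paracrine ligands such as FGF1, FGF16 and FGF18 bind with heparan sulphate as a cofactor, whereas the endocrine ligands need a Klotho protein beside the receptor. Beta-Klotho, encoded by Klb, serves FGF21 in fat and FGF15 in liver, and alpha-Klotho, encoded by Kl, serves FGF23 in kidney. FGFRL1 binds FGFs but lacks the tyrosine kinase domain. Activated receptors signal through FRS2, GRB2 and the RAS-MAPK cascade, whose output includes the feedback inhibitors of the Sprouty and DUSP families and the ETS factors ETV4 and ETV5.

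The promoter sequences of 3 of these genes are shown because the data bear on them. Klb had the largest fold difference in RNA between the ages among the 8 genes tested, and Fgf18 and Fgfr2 were the members that the authors linked to H3K27me3 regions. Windows of 300 bases at RefSeq start sites in GRCm38.p6 were kept for 7 of the 10 genes, 8 windows in all. Each ran from 250 bases before to 50 bases after the start. Fgfr1, Fgf1 and Fgf16 have no window here, which does not show that they lack a RefSeq start site. Capitals mark CG dinucleotides, which are dense in CpG islands, the usual seats of Polycomb in vertebrate promoters.
Klb (chr5:65348161-65348460, plus strand): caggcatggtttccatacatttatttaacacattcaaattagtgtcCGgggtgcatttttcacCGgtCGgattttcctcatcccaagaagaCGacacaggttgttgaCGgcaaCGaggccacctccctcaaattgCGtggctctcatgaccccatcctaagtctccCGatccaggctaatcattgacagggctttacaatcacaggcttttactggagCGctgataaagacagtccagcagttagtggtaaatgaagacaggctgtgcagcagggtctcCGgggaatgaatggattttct
Fgf18 (chr11:33147351-33147650, minus strand): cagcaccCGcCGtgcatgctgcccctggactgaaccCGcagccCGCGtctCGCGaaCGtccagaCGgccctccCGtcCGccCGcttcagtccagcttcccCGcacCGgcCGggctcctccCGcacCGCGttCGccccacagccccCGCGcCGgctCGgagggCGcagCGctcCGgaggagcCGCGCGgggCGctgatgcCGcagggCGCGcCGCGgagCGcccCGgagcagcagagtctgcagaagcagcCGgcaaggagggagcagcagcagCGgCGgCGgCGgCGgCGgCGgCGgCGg
Fgfr2 (chr7:130266759-130267058, minus strand): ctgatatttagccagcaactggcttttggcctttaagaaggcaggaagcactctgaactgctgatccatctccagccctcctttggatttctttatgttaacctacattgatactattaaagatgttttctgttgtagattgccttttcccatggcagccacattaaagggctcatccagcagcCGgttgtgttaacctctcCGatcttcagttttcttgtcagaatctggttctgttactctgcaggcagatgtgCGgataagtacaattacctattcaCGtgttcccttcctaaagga

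The Klb window held 10 CG dinucleotides, more than 56.5% of 32851 mouse promoter windows of the same length. The Fgf18 window held 47, more than 98.6% of the windows, and the Fgfr2 window held 4, more than 31.4% of them. The windows of Kl and Fgfr4 held 19 and 20, the 2 windows of Fgfr3 held 26 and 30, and that of Fgfrl1 held 37.

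The 68-week libraries held 28842059 to 34599121 counts and the 12-week libraries 23599296 to 31662601. The cardiomyocyte genes Myh6, Tnnt2, Tnni3, Actn2, Ryr2, Pln, Ttn and Nkx2-5 were all measured, and their summed level was 49015 to 54708 CPM at 68 weeks and 48014 to 54577 CPM at 12 weeks, where CPM is the count per 1000000 counts of the TMM-normalized library size. Markers of 2 other tissues differed between libraries. The 20 airway epithelium markers summed to 1089 CPM of the total counts in 68-week replicate 3 and to 24.3 to 25.7 CPM in replicates 1, 2 and 4 at 68 weeks. At 12 weeks they summed to 1832, 983 and 582 CPM in replicates 1, 2 and 3 and to 52.1 CPM in replicate 4. The 4 fat-restricted genes Adipoq, Plin1, Cidec and Cfd summed to 22.3 to 71.0 CPM at 68 weeks. Their sum was 124 to 221 CPM at 12 weeks, with no overlap between the ages. These 4 were picked from 15 white adipocyte markers after the values were seen. Of the markers left out, Lep had a log2 fold change of 0.85 ± 0.48 (68 minus 12 weeks, ± SE) and Retn of -1.61 ± 0.39. In these bulk samples, fewer cells of a type and less RNA per cell cannot be told apart.

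The levels of the 10 genes spanned more than 3 orders of magnitude per gene length. On the TPM scale, which divides counts by gene length, Fgf1, which encodes acidic FGF, stood highest, at 117 ± 5.46 TPM at 68 weeks and 125 ± 8.84 TPM at 12 weeks (SD, n = 4 each). Fgf16, a ligand expressed in mouse cardiomyocytes, followed at 27.8 ± 2.80 TPM at 68 weeks and 20.3 ± 4.00 TPM at 12 weeks. Fgfrl1 averaged 16.9 ± 1.45 TPM at 68 weeks and 18.3 ± 2.57 TPM at 12 weeks. The receptor gene Fgfr1 averaged 11.1 ± 0.97 TPM in the 68-week libraries and 13.6 ± 2.60 TPM in the 12-week libraries. Fgf18, a ligand best known from skeletal and lung development, averaged 8.44 ± 2.12 TPM at 68 weeks and 7.81 ± 1.05 TPM at 12 weeks. In this order Fgf1 lay apart from all others at both ages. The library ranges of Fgf16 and Fgfrl1 and those of Fgfrl1 and Fgfr1 met at 12 weeks but not at 68 weeks, and those of Fgfr1 and Fgf18 met at 68 weeks but not at 12 weeks.

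The other 5 genes were low. Fgfr3 stood at 4.28 ± 0.378 TPM at 68 weeks and 3.75 ± 0.859 TPM at 12 weeks, apart from Fgf18 above it and Fgfr2 below it. Fgfr2 averaged 0.814 ± 0.325 TPM at 68 weeks and 1.21 ± 0.727 TPM at 12 weeks. Klb averaged 0.206 ± 0.152 TPM at 68 weeks and 1.11 ± 0.428 TPM at 12 weeks. The library ranges of Fgfr2 and Klb overlapped at 12 weeks, from 0.567 to 2.15 TPM for Fgfr2 and from 0.731 to 1.61 TPM for Klb. At 68 weeks they did not, since Klb reached at most 0.422 TPM and Fgfr2 was at least 0.556 TPM. Fgfr4, the receptor that pairs with beta-Klotho in liver, averaged 0.0817 ± 0.0726 TPM at 68 weeks and 0.0540 ± 0.0293 TPM at 12 weeks. Kl averaged 0.0360 ± 0.0228 TPM at 68 weeks and 0.0951 ± 0.0452 TPM at 12 weeks. The library ranges of Klb and Fgfr4 met at 68 weeks, and those of Fgfr4 and Kl met at both ages.

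**Figure D1:**
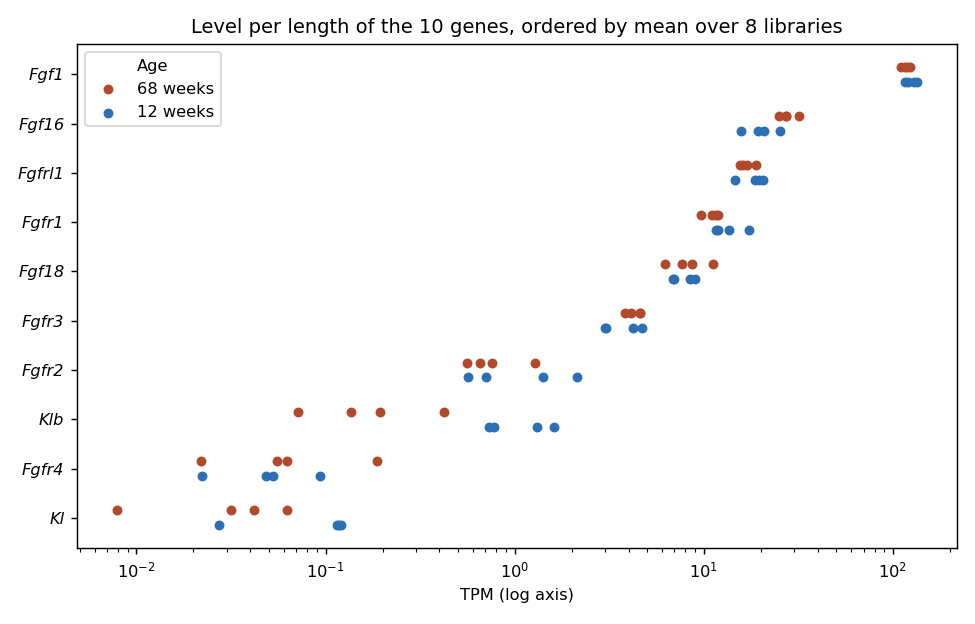
TPM of each of the 10 genes (log axis) in every library, with the 68-week libraries above the 12-week libraries in each row. Fgf1 lies apart at 110 to 135 TPM, and Klb at 68 weeks, at 0.0715 to 0.422 TPM, lies below its own 12-week libraries at 0.731 to 1.61 TPM.

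Of the 10 genes, 8 passed the filter on low counts. The fit across all genes called 2 of these 8, Klb lower and Fgf16 higher at 68 weeks, where it called 2.83% of 15947 genes in either direction, 1.61% higher and 1.22% lower (edgeR, adjusted p under 0.05). When counts were scaled by library size only, the fit called 176 genes higher and 248 lower, against 256 higher and 195 lower with TMM. The groups did not overlap for the same 2 genes, against 12.1% of all genes tested, 6.26% higher and 5.86% lower. Klb passed the filter mainly through its 12-week counts. The choice of members used this comparison, so nothing is read from these shares.

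Klb (chromosome 5, 65348314 to 65384007, mm10 by label) measured 0.397, 0.288, 0.838 and 0.149 CPM in replicates 1 to 4 at 68 weeks, from 12, 8, 26 and 5 counts. In the 12-week libraries, in the same order of replicates, it measured 2.24, 1.40, 1.64 and 3.21 CPM, from 76, 39, 38 and 89 counts. All 68-week libraries lay below all 12-week libraries, with 68-week replicate 3 the highest of its age and 12-week replicate 4 the highest of all. The log2 fold change was -2.34 ± 0.46 (68 minus 12 weeks, ± SE), with a 95% interval from -3.36 to -1.31. The call ended when any single library other than 68-week replicate 3 was left out, and the log2 fold change then ranged from -2.49 to -2.04. Without 68-week replicate 3 it was -2.93.

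**Figure D2:**
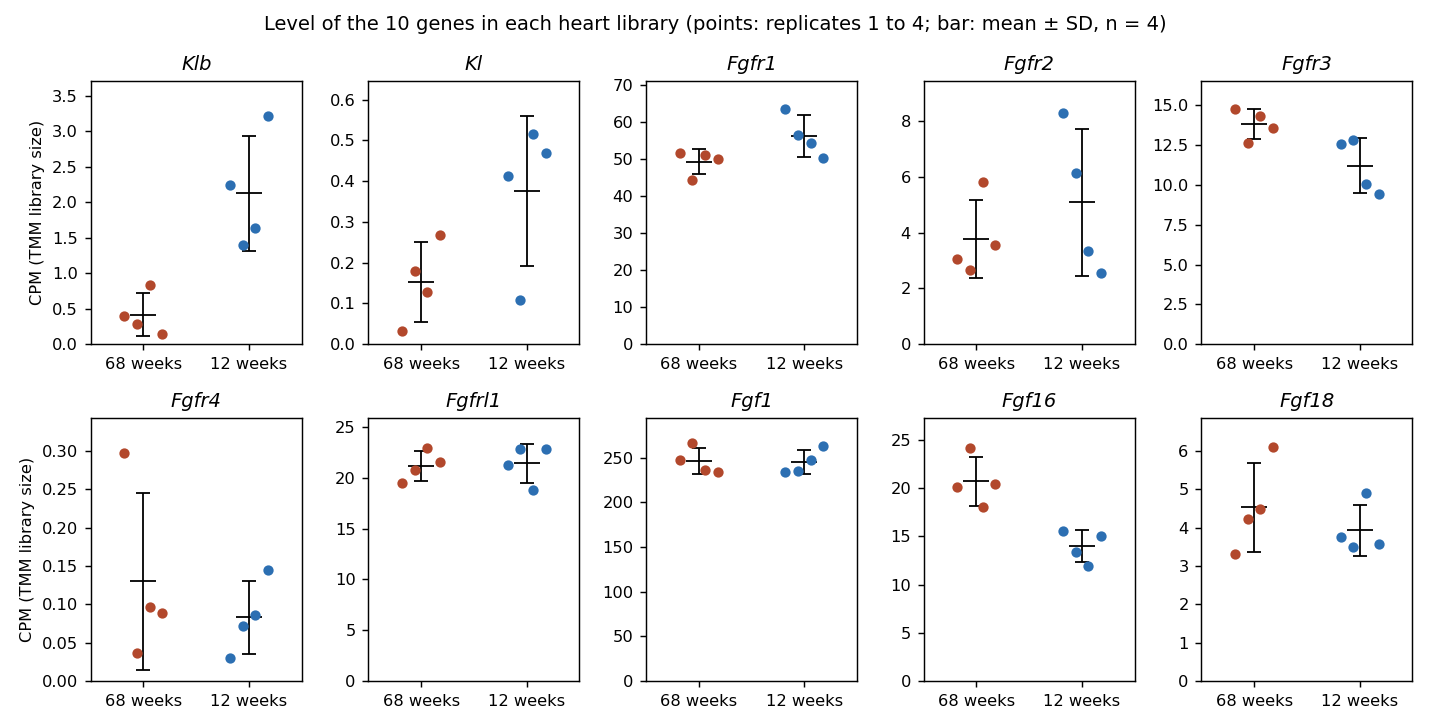
CPM of each gene in every library (points, replicates 1 to 4 from left to right) with the mean and SD of the 4 libraries of each age, 68 weeks left of 12 weeks. Klb is lower and Fgf16 higher in all 68-week libraries than in any 12-week library, and for the other 8 genes the ages overlap.

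Several fat genes were also lower at 68 weeks. Of 15 white adipocyte markers, 6 fell and 0 rose (edgeR, adjusted over all genes), and their median log2 fold change was -1.61, against -0.0082 over all genes tested. Those that fell were Adipoq, which encodes adiponectin (-1.86 ± 0.35, adjusted p = 0.0293), the lipid droplet gene Cidec (-1.95 ± 0.37, adjusted p = 0.0302), Cfd, which encodes adipsin (-1.71 ± 0.32, adjusted p = 0.0287), the carbonic anhydrase gene Car3 (-1.80 ± 0.39, adjusted p = 0.0455), the activin receptor gene Acvr1c (-2.23 ± 0.41, adjusted p = 0.0252) and the beta3-adrenergic receptor gene Adrb3 (-2.14 ± 0.41, adjusted p = 0.0316). Lep, which encodes the adipocyte hormone leptin, had a log2 fold change of 0.85 ± 0.48 and was not called. Of 8 brown adipocyte markers, 2 fell and 0 rose: Dio2, which encodes a deiodinase that activates thyroid hormone (-1.20 ± 0.19, adjusted p = 0.0140), and Elovl3, a fatty acid elongase gene (-3.58 ± 0.81, adjusted p = 0.0499). Ebf2, which encodes a transcription factor of brown fat, was the next by p (-0.47 ± 0.13) and was not called. DESeq2 called 10 white and 3 brown markers, all lower. With airway content in the model edgeR called 1 white marker, Adrb3, and 0 brown ones, and with either fat covariate it called 0 of both. When 1 library was left out, 0 to 5 white and 1 to 2 brown markers were called, with 0 white markers without 68-week replicate 1 or without 12-week replicate 1, 1 without 12-week replicate 3, and 3 to 5 without any other. Earlier results of these data had shown several of these decreases. The white adipocyte list summed to 5290 to 6407 CPM at 68 weeks and 6689 to 7368 CPM at 12 weeks, and the brown list to 628 to 723 CPM at 68 weeks and 774 to 1133 CPM at 12 weeks. In both lists, Elovl3 alone had no count in a library, 68-week replicate 4.

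Ucp1, the uncoupling protein of brown fat, was not called, at a log2 fold change of -2.56 ± 0.89. It measured 14.7, 40.5, 55.0 and 0.892 CPM in replicates 1 to 4 at 68 weeks and 103, 64.2, 117 and 368 CPM in replicates 1 to 4 at 12 weeks. The library with the most Ucp1, 12-week replicate 4, was also the one with the most Klb, and the library with the least, 68-week replicate 4, was the one with the least Klb.

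Set against the 4 fat-restricted genes, Klb overlapped between the ages. It reached 0.857, 0.437, 1.18 and 0.668 CPM per 100 CPM of those genes in 68-week replicates 1 to 4, and 1.01, 1.13, 1.03 and 1.58 in 12-week replicates 1 to 4. These ratios overlapped through 68-week replicate 3 alone, which lay above 12-week replicates 1, 2 and 3. The ratios of 68-week replicates 1, 2 and 4 lay below those of all 12-week replicates. Over the 8 libraries, log2 Klb and the log2 sum of the 4 genes had a Pearson r of 0.94 and a Spearman rho of 0.95, and r was 0.74 after the mean of each age was subtracted and 0.94 without the 2 libraries farthest from the median fat level. Against the whole white adipocyte list, r was 0.84 and was 0.36 with age means subtracted. Against the brown list it was 0.86 and 0.58. Other marker lists followed Klb as well, with r of 0.80 for alveolar epithelium (0.56 with age means subtracted). For fibroblasts r was 0.69 (-0.057). These libraries share age and tissue content, and r describes them only. With the summed level of the 4 genes in the model, a setting added after the values were seen, the log2 fold change of Klb was -0.20 ± 0.72. With the white adipocyte list in its place it was -0.33 ± 1.12. Neither covariate overlapped between the ages, and with each of them edgeR called 1 gene of all higher and 0 lower.

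**Figure D3:**
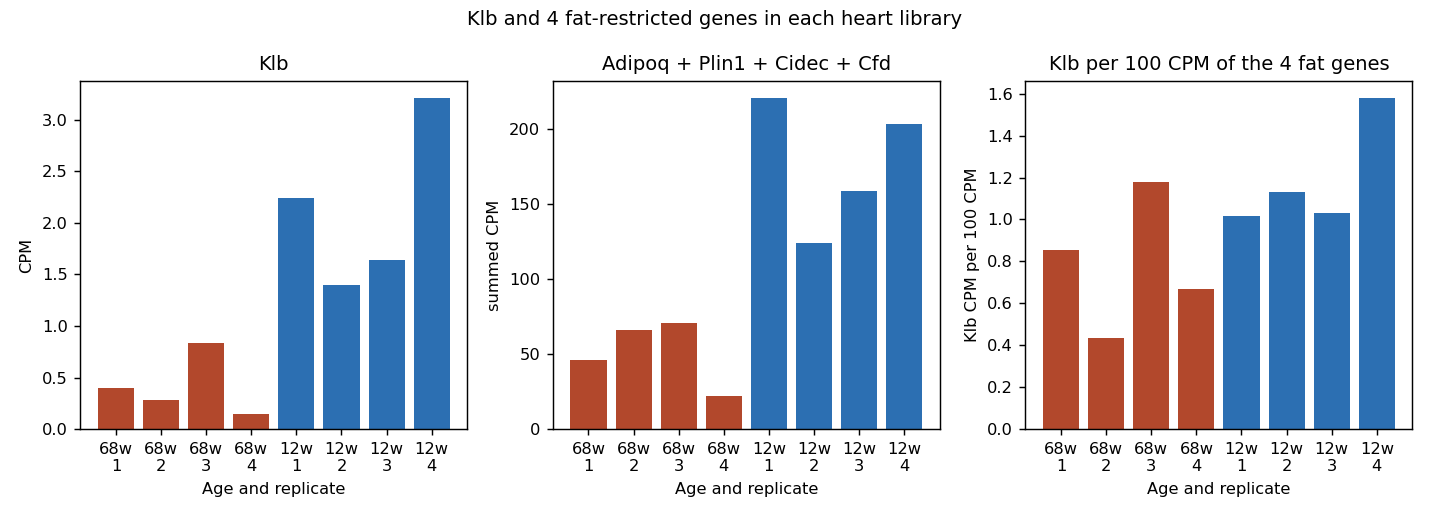
Klb (left, CPM), the summed CPM of Adipoq, Plin1, Cidec and Cfd (middle) and Klb per 100 CPM of those 4 genes (right) in each library, 68-week libraries in red left of the 12-week libraries in blue. The first 2 measures separate the ages. The ratio, at 0.437 to 1.18 in 68-week and 1.01 to 1.58 in 12-week libraries, overlaps through 68-week replicate 3 alone.

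Airway content differed between the libraries too. In the 4 airway-rich libraries, 68-week replicate 3 against 12-week replicates 1 to 3, the log2 fold change of Klb was -1.07 ± 0.40. In the 4 airway-poor libraries, 68-week replicates 1, 2 and 4 against 12-week replicate 4, it was -3.53 ± 0.42. Each of these fits rests on a lone library of 1 age, which is assumed to vary like the others: 68-week replicate 3 is the highest in Klb of its age and 12-week replicate 4 the highest of all, and the difference between the 2 fits was not tested. With the summed airway level in the model the log2 fold change of Klb was -2.27 ± 0.49, and Klb was not called. Log2 Klb and the log2 airway sum had a Pearson r of 0.57 over the 8 libraries and of 0.19 with age means subtracted. Airway markers had a median log2 fold change of -1.68, and edgeR called 0 of the 18 tested, DESeq2 likewise 0, and 2 had an unadjusted p under 0.05. Bpifb1 (-4.12 ± 1.28), Muc5b (-2.88 ± 1.23) and Rsph1 (-1.37 ± 0.61) had the smallest p. Tekt1, a ciliary gene, had no count in 68-week replicates 1, 2 and 4 and in 12-week replicate 4, and 8 further airway markers had none in at least 1 library of 68 weeks. The part of fat and of airway content in the Klb difference was not tested.

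Genes were ranked by Pearson correlation of log2(CPM + 0.5) with Klb, among tested genes with a symbol and leaving out predicted genes. The most alike over the 8 libraries were Ntrk2 (r = 0.99), Dhrs9 (0.98), Ankef1 (0.98), Pcdh18 (0.98), Traf4 (0.98) and Scd1 (0.98). These r were picked as the highest of many genes and describe these libraries only. Ntrk2, which encodes the neurotrophin receptor TRKB, measured 3.44, 3.89, 6.41 and 2.38 CPM in replicates 1 to 4 at 68 weeks and 11.2, 7.29, 8.14 and 15.1 CPM in replicates 1 to 4 at 12 weeks. Like Klb, it was highest in replicate 3 at 68 weeks and in replicate 4 at 12 weeks. Scd1, which encodes a fatty acid desaturase, stood at 50.6, 79.0, 144 and 35.9 CPM in the 68-week libraries and at 441, 227, 205 and 638 CPM in the 12-week libraries. After the mean of each age was subtracted, the most alike were Ptpru (0.97), Ntrk2 (0.97), Pip4k2c (0.97), Spats2l (0.97), Pcdh18 (0.97) and Gprin3 (0.97). Without 12-week replicate 4, the library highest in Klb, 0 of the first 6 genes and 1 of the second 6 were again among the 6 most alike.

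Kl, the other co-receptor gene (chromosome 5, 150952607 to 150993817), had few counts. It had 1, 5, 4 and 9 counts in 68-week replicates 1 to 4 and 14, 3, 12 and 13 counts in 12-week replicates 1 to 4, which is 19 counts in all at 68 weeks and 42 at 12 weeks. The ages overlapped through 12-week replicate 2. Kl did not pass the filter on low counts. Fitted without that filter, it had a log2 fold change of -1.25 ± 0.55.

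Fgfr1 (chromosome 8, 25513654 to 25575718), the highest by TPM of the 4 receptor tyrosine kinase genes, measured 51.6, 44.4, 51.1 and 50.1 CPM in replicates 1 to 4 at 68 weeks. It measured 63.6, 56.6, 54.2 and 50.1 CPM in replicates 1 to 4 at 12 weeks. The ages overlapped, since 12-week replicate 4 lay within the 68-week range. The log2 fold change was -0.19 ± 0.078, with a 95% interval from -0.36 to -0.014, and was not called. It was -0.093 ± 0.083 with airway content in the model.

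Fgfr2 (chromosome 7, 130162451 to 133123350 in the count table) encodes a receptor of epithelia, where it serves FGF7 and FGF10. It measured 3.05, 2.67, 5.80 and 3.57 CPM in replicates 1 to 4 at 68 weeks and 8.28, 6.14, 3.36 and 2.56 CPM in replicates 1 to 4 at 12 weeks. The high libraries were 12-week replicates 1 and 2 and 68-week replicate 3, which were also the 3 with the most airway counts. The log2 fold change was -0.44 ± 0.37, with an interval from -1.27 to 0.39, and it was 0.25 ± 0.26 with airway content in the model. It was 0.28 ± 0.24 in the 4 airway-poor libraries and -0.045 ± 0.42 in the 4 airway-rich ones. Log2 Fgfr2 and the log2 airway sum had a Pearson r of 0.85 and a Spearman rho of 0.67 over the 8 libraries, and r was 0.86 with age means subtracted and 0.86 without the 2 libraries farthest from the median airway level. Other markers followed Fgfr2 as well, with r of 0.85 for the immune list (0.89 with age means subtracted), 0.81 for smooth muscle and pericytes (0.79) and 0.74 for alveolar epithelium (0.78). As for Klb, r is a description of libraries that share tissue content, and the part of any of these in the Fgfr2 values was not tested.

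**Figure D4:**
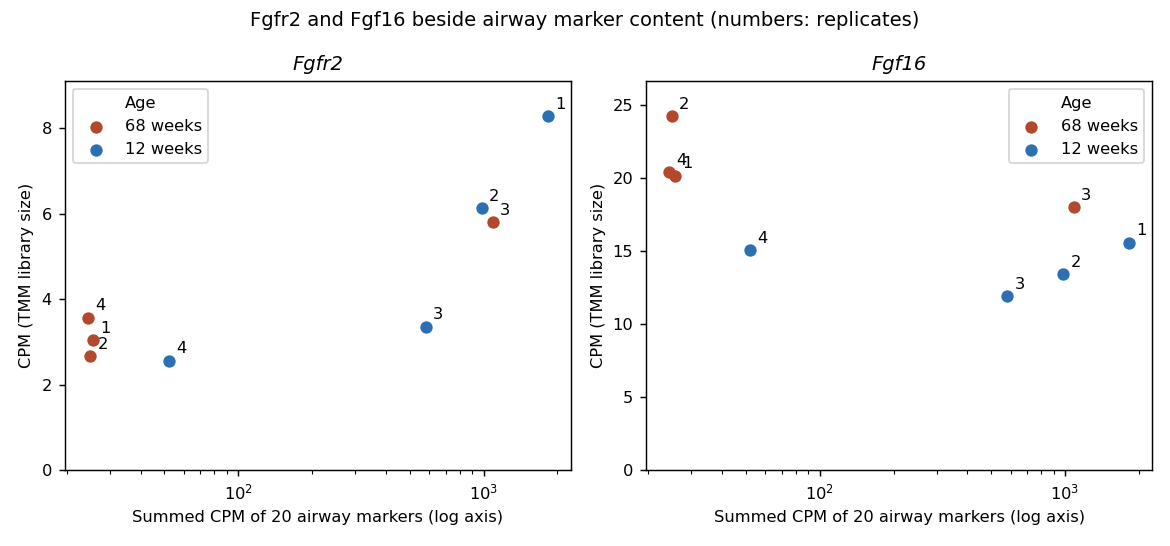
CPM of Fgfr2 (left) and Fgf16 (right) against the summed CPM of 20 airway markers (log axis) in each library, numbered by replicate. Fgfr2 is at 5.80 to 8.28 CPM in the 3 most airway-rich libraries and at 2.56 to 3.57 CPM in the other 5. Fgf16 in all 68-week libraries, at 18.02 to 24.2 CPM, lies above all 12-week libraries. Log2 Fgf16 had a Pearson r of -0.68 with the log2 airway sum.

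Fgfr3 (chromosome 5, 33721674 to 33737068) measured 14.7, 12.7, 14.3 and 13.6 CPM in replicates 1 to 4 at 68 weeks and 12.6, 12.8, 10.0 and 9.42 CPM in replicates 1 to 4 at 12 weeks. The ages met at 68-week replicate 2 and 12-week replicate 2. The log2 fold change was 0.30 ± 0.11, with an interval from 0.058 to 0.54, and was not called. It was positive in every setting tried, at 0.54 ± 0.14 in the 4 airway-poor libraries and 0.28 ± 0.16 in the 4 airway-rich ones. Fgfr4 (chromosome 13, 55152640 to 55168759) had 9, 1, 3 and 3 counts in the 68-week libraries and 1, 2, 2 and 4 counts in the 12-week libraries, too few for the filter, and without the filter its log2 fold change was 0.68 ± 0.69.

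Fgfrl1 (chromosome 5, 108692382 to 108706924) stood at 19.5 to 22.9 CPM at 68 weeks and at 18.8 to 22.9 CPM at 12 weeks. Its log2 fold change was -0.018 ± 0.076, with an interval from -0.19 to 0.15, and its sign changed between settings.

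Among the ligands, Fgf16 (chromosome X, 105764279 to 105774939) measured 20.2, 24.2, 18.02 and 20.4 CPM in replicates 1 to 4 at 68 weeks. It measured 15.6, 13.4, 11.9 and 15.1 CPM in replicates 1 to 4 at 12 weeks. All 68-week libraries lay above all 12-week libraries. Log2 Fgf16 and the log2 airway sum had a Pearson r of -0.68, and of -0.47 with age means subtracted. For fibroblast markers r was -0.79 (-0.34 with age means subtracted) and for immune markers -0.73 (-0.50). The part of tissue content in the Fgf16 values was not tested. The log2 fold change was 0.56 ± 0.11, with an interval from 0.32 to 0.80, which is a 1.47-fold level. It was positive in every setting tried, at 0.52 ± 0.15 in the 4 airway-poor libraries, 0.40 ± 0.16 in the 4 airway-rich ones, 0.46 ± 0.12 with airway content in the model and 0.71 ± 0.23 with the 4 fat-restricted genes in it. The call ended in each of those 4 fits, with the replicate block (0.56 ± 0.092) and with the white adipocyte covariate (0.83 ± 0.23). It also ended with library size alone as the normalization (0.50 ± 0.12), and without 68-week replicate 1, 2 or 4 or 12-week replicate 2 or 3.

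Fgf1 (chromosome 18, 38838673 to 38929404) measured 248, 266, 236 and 234 CPM in replicates 1 to 4 at 68 weeks and 234, 235, 248 and 263 CPM in replicates 1 to 4 at 12 weeks. The ages overlapped fully, and the 95% interval of the log2 fold change ran from -0.13 to 0.14. Fgf18 (chromosome 11, 33117430 to 33147400) measured 3.31, 4.22, 4.48 and 6.10 CPM in replicates 1 to 4 at 68 weeks and 3.74, 3.48, 4.91 and 3.57 CPM in replicates 1 to 4 at 12 weeks. The ages overlapped, with 68-week replicate 4 the highest library. Of the marker lists, mesothelium and epicardium had the strongest Pearson r with log2 Fgf18, at -0.91 (-0.90 with age means subtracted). For skeletal muscle markers r was 0.86 (0.85). The part of tissue content in the Fgf18 values was not tested. The log2 fold change of Fgf18 was 0.21 ± 0.19, with an interval from -0.21 to 0.64, and it was 0.035 without 68-week replicate 4.

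The rest of the FGF pathway was followed in 71 further genes, of which 57 passed the filter. Of these 57, 0 were called higher and 1 was called lower by edgeR, against 3 and 2 by DESeq2. Over all genes, edgeR called 256 higher and 195 lower of 15947, and DESeq2 called 564 higher and 437 lower of 16294. At an unadjusted p under 0.05, 7 of the 57 were higher and 3 lower. The share of all genes at that cut is not given, so nothing is read from unadjusted counts, here or for single lists. Of 15 other FGF ligands, 5 passed the filter and 0 were called (1 at an unadjusted p under 0.05, 0 by DESeq2), with a median log2 fold change of 0.13. Fgf9 (0.13 ± 0.054, adjusted p = 0.233), Fgf10 (0.37 ± 0.23, adjusted p = 0.410) and Fgf6 (0.58 ± 0.46, adjusted p = 0.531) had the smallest p. The endocrine ligands were near or at 0: Fgf15 had no count in any library, Fgf21 stood at up to 0.0993 CPM at 68 weeks and up to 0.0861 CPM at 12 weeks, and Fgf23 at up to 0.0360 CPM at 68 weeks and up to 0.144 CPM at 12 weeks. Of the 4 intracellular homologues, which regulate sodium channels and are not secreted, edgeR and DESeq2 called 0 and 0 had an unadjusted p under 0.05, with Fgf13 at 0.18 ± 0.092, Fgf12 at 0.28 ± 0.29 and Fgf11 at 0.10 ± 0.11.

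Of 19 genes of the receptor cascade, 0 were called (4 at an unadjusted p under 0.05, 2 by DESeq2), with a median log2 fold change of 0.019. The exchange factor gene Sos2 (0.21 ± 0.051, adjusted p = 0.0673) and the GTPase gene Nras (-0.17 ± 0.046, adjusted p = 0.0785) were among those with the smallest p. Of 15 feedback and ETS target genes, 14 were tested and 1 was called, Dusp4, which encodes a MAPK phosphatase. It fell to 3.81, 3.82, 4.09 and 2.44 CPM in 68-week replicates 1 to 4, against 7.57, 5.57, 6.33 and 9.53 CPM in 12-week replicates 1 to 4 (log2 fold change -1.04 ± 0.20, adjusted p = 0.0317, edgeR). The call ended without 68-week replicate 1, 2 or 4 or 12-week replicate 1, 3 or 4. The log2 fold change was -0.10 ± 0.27 with the 4 fat-restricted genes in the model and -1.08 ± 0.24 with airway content in it. Dusp4 was not called in either fit. The level of the 4 fat-restricted genes did not overlap between the ages, and with it in the model edgeR called 1 gene of all higher and 0 lower. The part of fat content in the Dusp4 difference was not tested. Etv4 (0.90 ± 0.32, adjusted p = 0.172) and Dusp5 (0.18 ± 0.13, adjusted p = 0.479) had the next smallest p, and the feedback genes Spry2 (-0.00085 ± 0.041), Dusp6 (-0.0073 ± 0.12) and Etv5 (0.13 ± 0.13) were not called. Of 18 cofactor and binding genes, 15 were tested and 0 were called (3 at an unadjusted p under 0.05, 2 by DESeq2), with the syndecan genes Sdc2 (0.17 ± 0.043, adjusted p = 0.0682), Sdc4 (-0.33 ± 0.095, adjusted p = 0.102) and Sdc3 (0.15 ± 0.057, adjusted p = 0.184) having the smallest p.

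**Figure D5:**
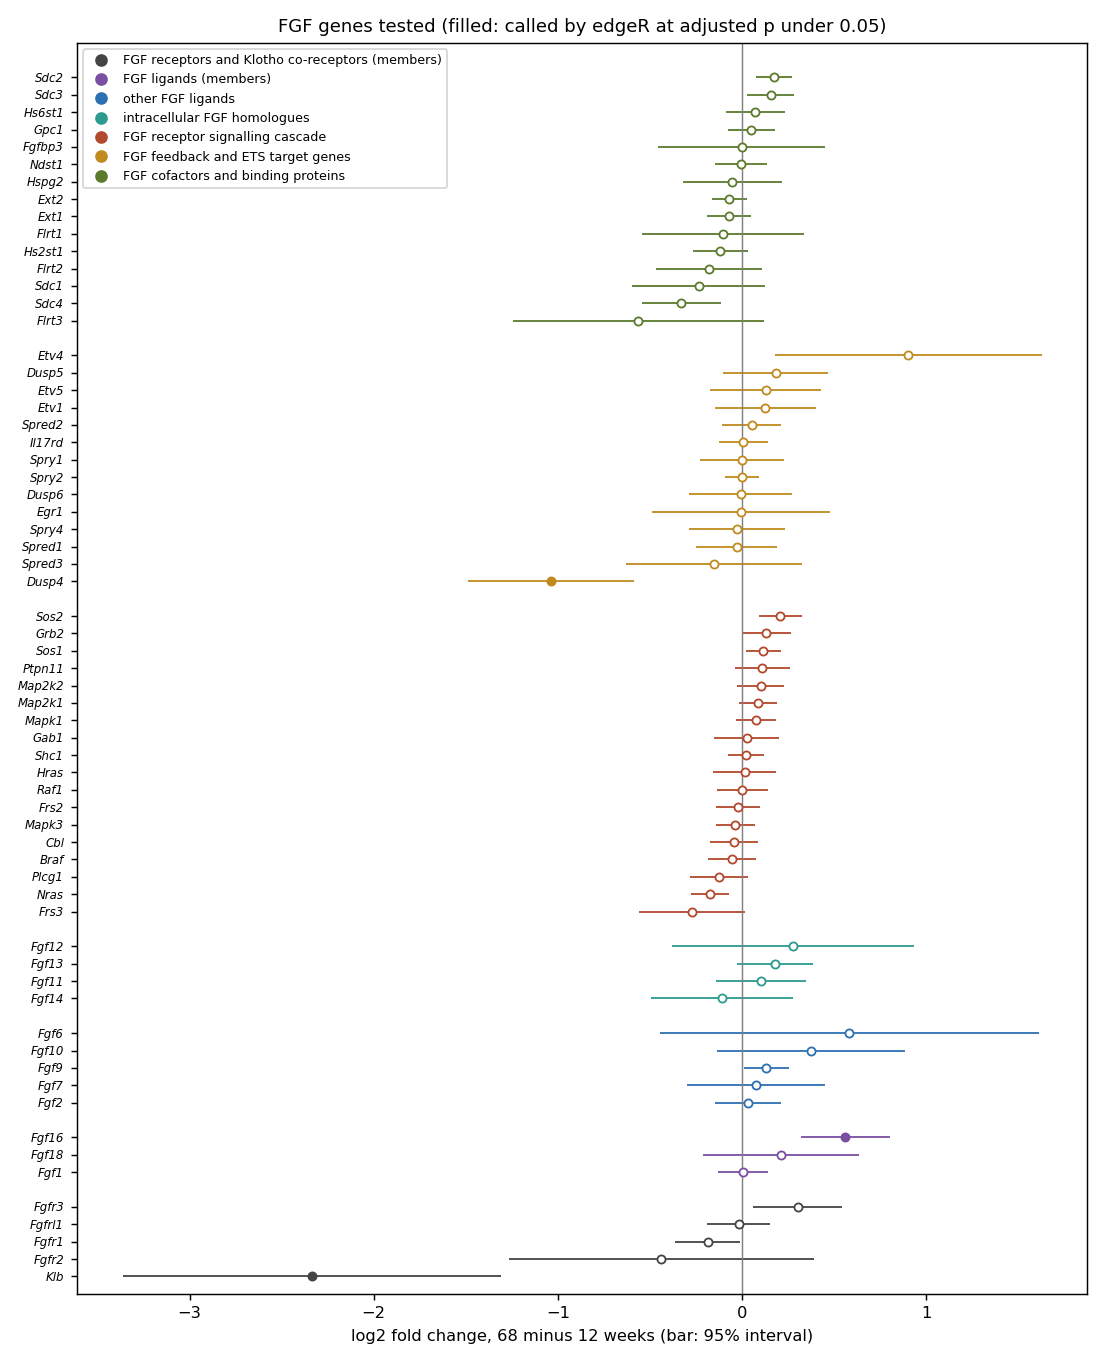
Log2 fold change (68 minus 12 weeks) with its 95% interval for the genes of the FGF lists that passed the filter and are reported here, grouped by list. Filled points are the 3 genes called by edgeR, Klb and Dusp4 lower and Fgf16 higher, and the open points lie between -0.57 and 0.90.

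The deposited H3K27me3 lists held 3433 regions named as unique to 68 weeks and 1164 named as unique to 12 weeks, each with the authors' enrichment score, which is the region's own value and has no stated scale. Values of single libraries are not in them, so the regions have no replicate error. Of the 10 genes, Fgfr2 and Fgf18 were linked to regions by the authors at 68 weeks and Fgfr2 at 12 weeks. Of the genes tested in RNA, 3.46% were linked to a 68-week region and 1.44% to a 12-week region. Klb was linked to no region of either list, nor were Kl, Fgfr1, Fgfr3, Fgfr4, Fgfrl1, Fgf1 or Fgf16. A region marked at both ages would be in neither list, so this does not show that the mark was absent from these genes.

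Fgf18 was linked to 2 regions at 68 weeks and to 0 at 12 weeks. Whether promoter CG content bears on such links was not tested. One ran over 487 bases on chromosome 11 from 33074696 to 33075182 in the deposited positions, with a score of 10.6, the 32nd highest of that list, whose median was 4.77. The other ran from 33072673 to 33072961, with a score of 4.38. The RNA of Fgf18 averaged 4.53 ± 1.16 CPM at 68 weeks and 3.93 ± 0.66 CPM at 12 weeks (SD, n = 4 each), and the ages overlapped.

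Fgfr2 was linked to 17 regions at 68 weeks and to 3 at 12 weeks. In the 68-week list, 1 gene had more links than Fgfr2. Some Fgfr2 regions were linked to other genes too: Gm44546, Btbd16 or Htra1 at 68 weeks, and Hmx2, or Gm16764 with Nkx1-2, at 12 weeks. The scores of the 17 ran from 3.54 to 8.40. In the count table Fgfr2 spans 2961 kb, longer than all but 1 of 49315 genes, since 2 exons with 314 of its 10328 exonic bases lie 2815 kb beyond the rest. RefSeq gives the gene a length of 104 kb in GRCm38, and 31 other protein-coding RefSeq genes lie within the longer span. The 20 regions were spread over 1782 kb, from 130424030 to 132206174 on chromosome 7 as deposited, which is wider than the RefSeq gene. As deposited, all 20 began past 130266808, the upper end of the RefSeq gene in GRCm38.

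The build of the region positions was not established. As deposited, 20.6% of 2479 links placed the region on its linked gene in the count table. On chromosome 11 the share was 16.9% of 166 links, and it was 84.9% when all regions of that chromosome were moved by a single constant of 110 kb, the best of the constants tried. On chromosome 7 the share was 13.2% of 257 links, and at most 46.3% with a constant. The distance of the Fgf18 and Fgfr2 regions to their genes is therefore not given.

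Of the other FGF genes, Fgf12 was linked to 3 regions at 68 weeks with scores of 6.79, 4.44 and 3.85, Fgf23 to 1 with a score of 4.25, and the glypican gene Gpc1 to 1 with a score of 6.95. Fgf10 was linked to 1 region at 12 weeks with a score of 4.18. The Gpc1 region was also linked to Gm29481 and the Fgf10 region to Gm16263. In RNA, Fgf12 had a log2 fold change of 0.28 ± 0.29, Fgf10 of 0.37 ± 0.23 and Gpc1 of 0.050 ± 0.057, and none of these 3 was called by edgeR.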

How the data were processed

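The deposited RNA values were raw counts of reads per gene, per the file headers, and the series table and the single files held the same values in 8 of 8 libraries. Trimmomatic 0.36, STAR 2.5.2b, featureCounts of Subread 1.5.2 and DESeq2 are named in the submitters' processing notes, with mm10 as the build. The notes also name MACS3 3.0.0b1, Picard 2.26.2, Bowtie2 2.4.2, Trim Galore 0.6.5 and SAMtools 1.14, with no roles. Whether counting used strand is not stated, so reads of antisense partners cannot be told apart. The authors' score per H3K27me3 region was deposited as enrichment.

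Age was tested with edgeR 4.0.16 in R 4.3.3 (quasi-likelihood test, TMM, filterByExpr with a minimum count of 10, Benjamini-Hochberg adjustment over 15947 genes). SE is the log2 fold change over the square root of F. TPM used the gene lengths of the count files. The members, lists and tests were chosen with earlier results of these data known. Named genes were the members, the 6 genes most like Klb in each way, the genes called in each list (or the 3 with the smallest p) and FGF genes linked to regions. Lep, Ucp1, Spry2, Dusp6, Etv5 and Tekt1 were chosen after their values were seen. The values of 1 gene of the cascade list are not reported here. The summed white adipocyte list of 15 genes was 74.2% to 82.8% Lpl, a gene the heart itself expresses, so 4 fat-restricted genes were added. No pair of libraries of 1 age agreed within sampling noise (chi-square per degree of freedom at least 17.4). Alternatives were RLE or library size alone as the normalization, no filter, DESeq2 1.42.0, a replicate block, airway or fat covariates, airway subsets and leaving out each library.

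Of the other marker lists, edgeR called 0 of 6 alveolar, 0 of 8 cardiomyocyte, 0 of 6 endothelial, 0 of 6 smooth muscle and pericyte, 0 of 6 mesothelium and epicardium and 0 of 4 skeletal muscle markers. At an unadjusted p under 0.05 these lists had 3, 2, 2, 1, 1 and 1 genes, and DESeq2 called 0, 1, 2, 0, 1 and 0. By edgeR, 1 of 7 fibroblast markers (Col1a1, -0.73 ± 0.16) was called and 2 of 7 immune markers (Ptprc, -0.74 ± 0.13, and Cd79a, -2.17 ± 0.41) were called, all lower at 68 weeks.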

Additional observations from a re-analysis of the deposited data

How the results depend on the processing

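Counts near the threshold moved with most settings, and low counts limit Kl, Fgfr4 and Klb. Over all genes 256 were higher and 195 lower by edgeR, and 176 higher and 248 lower with library size alone. The counts were 112 and 48 with a replicate block, 77 and 25 with the airway covariate, 1 and 0 with the white adipocyte covariate and likewise with the 4 fat-restricted markers (added after seeing the data), 10 and 23 in the 4 airway-poor libraries, 4 and 1 in the 4 airway-rich ones, and 564 and 437 by DESeq2. Leaving out 1 library gave 117 to 209 higher and 52 to 154 lower. The correlation of same-numbered deviations ran from -0.20 to 0.24, and that of differently numbered ones from -0.52 to 0.56. Since the libraries differ in tissue content, these values cannot show whether the replicate numbers pair the libraries.

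Of the 10 genes, 1 was higher and 1 lower. Both counts were 0 with the replicate block, the 3 covariates and the 2 airway subsets, and 0 to 1 when 1 library was left out. With library size alone 0 were higher. Of the 71 further FGF genes 0 were higher and 1 lower. The lower count was 0 with the replicate block, the 3 covariates and the 2 airway subsets and 2 by DESeq2 (Dusp4 and Sdc4), and 0 to 1 with 1 library left out. The higher count was 3 by DESeq2 (Sos2 and Sdc2 among them) and 0 to 1 with 1 library left out.

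Signs changed for 4 genes, none of them called, and the cause was not tested. Fgfr2 was 0.25 with the airway covariate and 0.28 in the airway-poor libraries. Fgfrl1 was 0.0076 with the airway covariate, 0.0051 with the 4 fat-restricted markers, 0.13 in the airway-rich libraries, and -0.075 to 0.021 with 1 library left out. Fgf1 was -0.053 with library size alone, -0.060 with the airway covariate, -0.078 and -0.018 in the airway-poor and airway-rich libraries, and -0.033 to 0.043 with 1 library left out. Fgf18 was -0.61 with the white adipocyte covariate and -0.30 with the 4 fat-restricted markers. With a pseudocount of 1, 4 and 3 of the 6 genes most like Klb were shared, without and with age means subtracted, and 0 and 1 in the leave-one-out setting without 12-week replicate 4.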
